A study of Mus musculus with 24 samples.

Results

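The interferon response genes described here are 35 genes that cells switch on when interferon, or foreign nucleic acid inside the cell, is sensed. They were chosen by name, as a list of well-known members of this response, and each name was matched through its Ensembl ID to 1 row of a count table of 54232 genes. All 35 were found, and all 35 passed the filter on low counts in every test below.

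The table held RNA-seq of cultured osteoblasts, the cells that make bone matrix, grown from pooled skull bones (calvariae) of newborn mice. WT cultures came from wild-type mice and HBM cultures from mice with high bone mass, whose mutation is not given in the sources used here. Polyadenylated RNA was taken at days 0, 10, 15 and 21 of osteoblast differentiation. The growth notes speak of 3 independent pooled cultures, and the batch numbers 18, 19 and 21 all occur in either genotype at each time, which makes 24 libraries in 8 groups of 3: WT day 0, WT day 10, WT day 15, WT day 21 and the same 4 days of HBM. The labels name no interferon, virus or other agent for any group, and they do not state what libraries of 1 batch number shared. Below, a culture means the libraries of 1 genotype and batch number, which the labels do not say were 1 culture followed over time. Each culture pools newborns and may hold other cells of the bone, and in these bulk samples fewer cells of a type and less RNA per cell cannot be told apart.

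Type I and type III interferons are secreted proteins that bind receptors on the cell surface. The receptors act through a complex of transcription factors that includes STAT2 and IRF9 and binds a short DNA element, the interferon-stimulated response element (ISRE), and raises a broad set of antiviral genes. IRF7 is both a product of this response and a driver of further interferon production. In bone, interferon signalling is known mainly as a brake on the formation of osteoclasts, the cells that resorb bone.

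The element itself was looked for first, since the genes below moved together. RefSeq promoter windows of GRCm38.p6, the assembly also called mm10, run from 250 bases before to 50 bases after each start. A window was found for 26 of the 35 genes. The ISRE core was searched as GAAA, any 2 bases and GAAA again, which reads TTTC, 2 bases and TTTC on the other strand, with overlapping matches counted. It was in a window of 14 of the 26 genes (53.8%) and of 811 of 20579 genes of the table with a window (3.94%). Counting only the bases before the start, it was in 11 of 26 (42.3%) and 710 of 20579 (3.45%). The shorter element of interferon gamma, TTCNNNGAA, was in 6 of 26 (23.1%) and 1915 of 20579 (9.31%). A match is only a match of letters and was not tested as a bound site. The stretches below carry the core, in capitals. They were picked among the genes that hold it, because the genes shown stood far apart between libraries. Irf7, Oasl2 and Ifi44 also stood far apart but had no core in their window. Stat2, Gbp2 and Oas3 held the core upstream and differed less. Rsad2 held it upstream and stood far apart too, but is not shown. Each stretch reads 5′ to 3′ on the strand of the gene, all upstream of the start.
Isg15, chr4:156200855-156200916, minus strand: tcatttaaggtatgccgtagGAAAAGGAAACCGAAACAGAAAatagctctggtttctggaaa
Ifit1, chr19:34640765-34640833, plus strand: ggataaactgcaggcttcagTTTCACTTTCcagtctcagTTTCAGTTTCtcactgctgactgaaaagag
Ifit3, chr19:34583353-34583436, plus strand: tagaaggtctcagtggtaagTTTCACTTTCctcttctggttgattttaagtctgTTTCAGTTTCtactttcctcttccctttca
Bst2, chr8:71537567-71537622, minus strand: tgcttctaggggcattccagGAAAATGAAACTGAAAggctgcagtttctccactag
Gbp3, chr3:142559979-142560034, plus strand: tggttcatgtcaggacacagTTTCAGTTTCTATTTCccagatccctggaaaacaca
Oas1a, chr5:120907526-120907565, minus strand: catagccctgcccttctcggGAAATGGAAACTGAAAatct
Cxcl10, chr5:92349073-92349122, minus strand: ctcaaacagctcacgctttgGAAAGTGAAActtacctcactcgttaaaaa
Isg15 held 3 overlapping cores, and Ifit1, Ifit3, Bst2, Gbp3 and Oas1a held 2 each. In Oas1a the nearer core ended 5 bases before the start, and in Cxcl10 the core lay 213 to 204 bases before it.

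The 24 libraries held 28039095 to 46987734 counts. Levels are given as CPM, the usual measure of counts relative to the scaled total of the library. The labelled cell type was checked against 8 osteoblast markers. Col1a1, the main bone collagen gene, was at 17992 to 110985 CPM and the osteoblast regulator Runx2 at 55.2 to 118 CPM, while the late marker Bglap was at 0.0519 to 0.223 CPM on day 0 and was higher later in all 6 cultures. Markers of other cells were present too: 12 macrophage markers summed to 45.2 to 1437 CPM on day 0 and 1636 to 12260 CPM later. Libraries of the same day and batch resembled each other across genotypes, and the day 0 libraries of batch 19 stood apart in the genes described here. Several results that rest on them are also given without them.

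On day 0 nearly the whole set was high in both libraries of batch 19, the WT and the HBM culture alike, and low in the 4 libraries of batches 18 and 21. Summed over the 35 genes, the level was 2473 CPM in the WT and 2233 CPM in the HBM library of batch 19. It was 494 and 492 CPM in batch 18 and 377 and 374 CPM in batch 21. For 34 of the 35 genes both batch 19 libraries were above all 4 others, which held for 21% of the 15233 genes tested on that day. The exception was Oas3, where the WT library of batch 19 lay below the WT library of batch 21. In 27 of the 35 genes, a count for which no share over all genes was taken, both of these libraries were also above the 22 other libraries. The heat map shows this as a bright pair of columns.

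**Figure D1:**
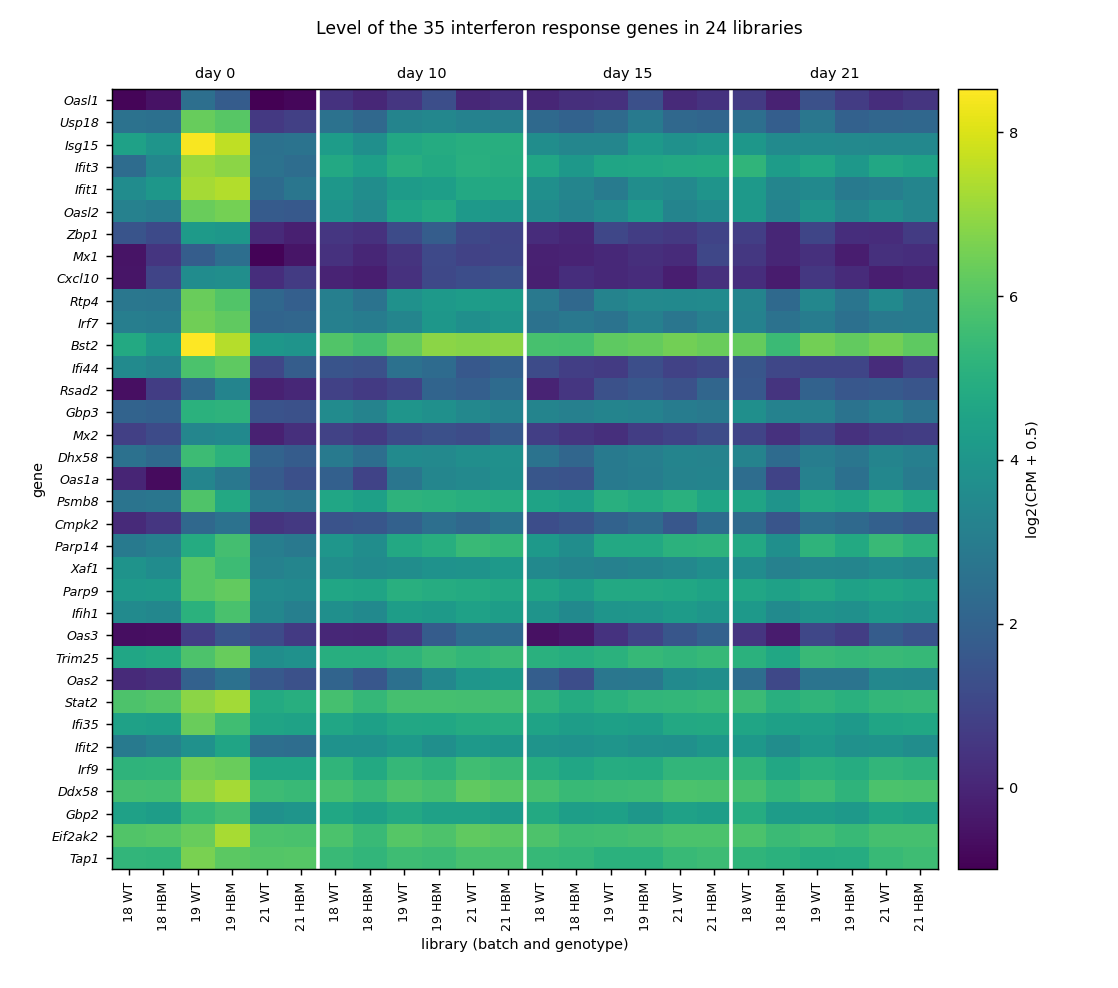
Level of the 35 genes (rows, ordered by their day 0 difference between batch 19 and the other batches) in the 24 libraries (columns, by day, batch and genotype), as log2(CPM + 0.5). The WT and HBM columns of batch 19 on day 0 are the brightest of their day in 34 rows, against 8, 3 and 1 rows at days 10, 15 and 21.

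The difference was tested after it had been seen, in a fit of the 6 day 0 libraries with terms for genotype and batch. The contrast was batch 19 against the mean of batches 18 and 21 on the log scale. Folds given from it can therefore differ from ratios of mean CPM. By edgeR's quasi-likelihood test 34 of the 35 genes were higher in batch 19 at an adjusted p under 0.05, against 8.94% of 15233 genes, and 0 were lower, against 6.22%. DESeq2 called 35. The median log2 difference of the 35 was 3.23, or 9.36-fold, against -0.01 over all genes. Of the 35, 16 differed at least 10-fold, a count for which no share over all genes was taken. Of the 10 genes with the smallest p of all those tested, 8 belong to the set, and 15 of the first 50 do. A test of any difference between the 3 batches also called 34 of 35 genes, against 18.2% of all. Each batch had only 1 WT and 1 HBM library on that day, so the error is the spread between genotypes within a batch, with 2 residual degrees of freedom.

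The transcription factors came first in role. Irf7 (ENSMUSG00000025498, chromosome 7, 141262706 to 141266481, minus strand) was at 7.95, 88.6 and 3.70 CPM in the WT libraries of batches 18, 19 and 21 and at 7.62, 74.0 and 3.92 CPM in the HBM libraries. Batch 19 did not overlap the others, and the log2 difference was 3.87 ± 0.14 (SE, adjusted p = 0.000758). Stat2 (ENSMUSG00000040033, chromosome 10, 128270559 to 128292849, plus strand) was at 57.5, 117 and 27.9 CPM in WT and 62.0, 149 and 31.2 CPM in HBM. Irf9 (ENSMUSG00000002325, chromosome 14, 55603571 to 55610030, plus strand) was at 36.2, 89.0 and 24.7 CPM in WT and 37.6, 81.4 and 24.3 CPM in HBM. These members of the complex that binds the ISRE were 3.10-fold and 2.78-fold higher in batch 19 (adjusted p = 0.0037 and 0.00391). For both, batch 21 was the lowest and batch 18 lay between.

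Isg15 encodes a ubiquitin-like protein that is joined to other proteins and also secreted. Isg15 (ENSMUSG00000035692, chromosome 4, 156199424 to 156200818, minus strand) was at 21.3, 346 and 5.34 CPM in the WT libraries of batches 18, 19 and 21. The HBM libraries gave 15.1, 194 and 5.71 CPM in the same order. Batch 19 was 25.6-fold higher than the mean of the others on the log scale (log2 4.68 ± 0.20, adjusted p = 0.000964). The ratio of mean CPM was 22.8. The HBM library of batch 19 held 0.560 times the level of its WT library. Usp18, the protease that takes ISG15 off and dampens the receptor, was at 5.54, 78.3 and 1.0 CPM in WT and 5.19, 65.3 and 1.26 CPM in HBM. Its difference was 28.6-fold (adjusted p = 0.000758). Trim25, a ligase that activates the sensor RIG-I, was 3.63-fold higher.

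The IFIT proteins bind viral RNA and block its translation. Ifit1 (ENSMUSG00000034459, chromosome 19, 34640871 to 34650009, plus strand) had the smallest p of all 15233 genes. It was at 12, 151 and 4.59 CPM in the WT libraries of batches 18, 19 and 21 and at 16.2, 174 and 6.14 CPM in HBM, a log2 difference of 4.21 ± 0.13 (adjusted p = 0.000758). Ifit3, its binding partner, was at 4.61, 135 and 5.51 CPM in WT and 10.1, 117 and 4.81 CPM in HBM. Ifit2 moved less, with 6.91, 13.6 and 5.14 CPM in WT and 8.87, 23 and 4.75 CPM in HBM, so that batch 19 was 2.81-fold higher (adjusted p = 0.0125). Ifit3 has a near-identical neighbour, Ifit3b, as several OAS, GBP and class I genes have close copies, and how reads that match several genes were counted is not given in the sources used here.

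Among the sensors, Dhx58, a regulator of RNA sensing, was 9.88-fold higher in batch 19 and Zbp1, which senses nucleic acid of unusual form and can start cell death, 16.7-fold. Zbp1 was at 2.27, 17.8 and 0.612 CPM in the WT libraries of batches 18, 19 and 21 and at 1.69, 16.0 and 0.398 CPM in HBM. Ddx58, which encodes RIG-I, was the most abundant sensor and changed by 2.73-fold. Ifih1, which encodes the sensor MDA5, was 4.31-fold higher. All 4 passed the test.

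The OAS enzymes make a signal that switches on an RNA-cutting enzyme. Oasl2 was at 8.61, 82.3 and 2.84 CPM in the WT libraries of batches 18, 19 and 21 and 7.73, 91.4 and 2.69 CPM in HBM (log2 4.17 ± 0.15, adjusted p = 0.000758). Oasl1 was nearly absent outside batch 19, with 0.0454, 5.09 and 0 CPM in WT and 0.191, 2.91 and 0.0664 CPM in HBM, so no fold is given. Oas1a was at 0.50, 9.72 and 2.86 CPM in WT and 0.109, 6.47 and 1.99 CPM in HBM. Here batch 21, the lowest batch for most of the set, was above batch 18. The same held for Oas2, at 0.591, 3.41 and 2.7 CPM in WT and 0.710, 5.32 and 2.09 CPM in HBM, and for Oas3. Oas3 was at 0.136, 1.19 and 1.78 CPM in WT and 0.164, 2.39 and 1.03 CPM in HBM. In the contrast on the log scale Oas2 and Oas3 were 3.39-fold and 3.73-fold higher in batch 19 (adjusted p = 0.0164 and 0.0442). As ratios of mean CPM the values were 2.87 and 2.31, and the contrast for Oas3 rests on few reads in batch 18. Eif2ak2, which encodes the RNA-activated kinase PKR, was the gene that did not pass (log2 0.91 ± 0.25, adjusted p = 0.0608). Its levels were 61.7, 78.7 and 56.1 CPM in WT and 64.8, 156 and 54.8 CPM in HBM, with only the HBM library of batch 19 far above the rest.

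The other antiviral effectors all passed. Bst2, the protein tetherin that holds budding virus at the membrane, was at 27.3, 369.5 and 16.2 CPM in the WT libraries of batches 18, 19 and 21 and 16.6, 178 and 14.8 CPM in HBM (13.9-fold, adjusted p = 0.0018). Rsad2 (ENSMUSG00000020641, chromosome 12, 26442746 to 26456452, minus strand), which encodes viperin, was at 0.159, 4.26 and 0.417 CPM in WT. In HBM it was at 1.15, 9.45 and 0.531 CPM, and the difference was 12.6-fold (adjusted p = 0.00594). Ifi44, Rtp4, Mx1 and Mx2 were 12.9-fold, 14.7-fold, 16.7-fold and 11.2-fold higher. Cmpk2, Xaf1 and Ifi35 were 5.72-fold, 4.90-fold and 2.85-fold higher. Mx1 rests on few reads, at 0.0278 to 0.901 CPM in the 4 libraries of batches 18 and 21.

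Parp9 and Parp14, a pair of ADP-ribosylating proteins of the response, were 4.83-fold and 5.07-fold higher in batch 19. The guanylate-binding protein genes Gbp3 and Gbp2 were 12.5-fold and 2.64-fold higher. Psmb8, a subunit of the immunoproteasome that cuts peptides for display, was at 5.82, 59.6 and 6.56 CPM in the WT libraries of batches 18, 19 and 21 and at 6.25, 26.4 and 5.87 CPM in HBM. Tap1, the peptide transporter, showed the smallest called difference, with 38.2, 96.7 and 63.1 CPM in WT and 37.5, 69.2 and 63.9 CPM in HBM (1.65-fold, adjusted p = 0.0323). Cxcl10 (ENSMUSG00000034855, chromosome 5, 92346638 to 92348889, minus strand), a chemokine that draws T cells, was at 0.227, 12 and 0.695 CPM in WT. In HBM it was at 1.45, 12.6 and 1.06 CPM, and the difference was 15.8-fold (adjusted p = 0.0061).

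**Figure D2:**
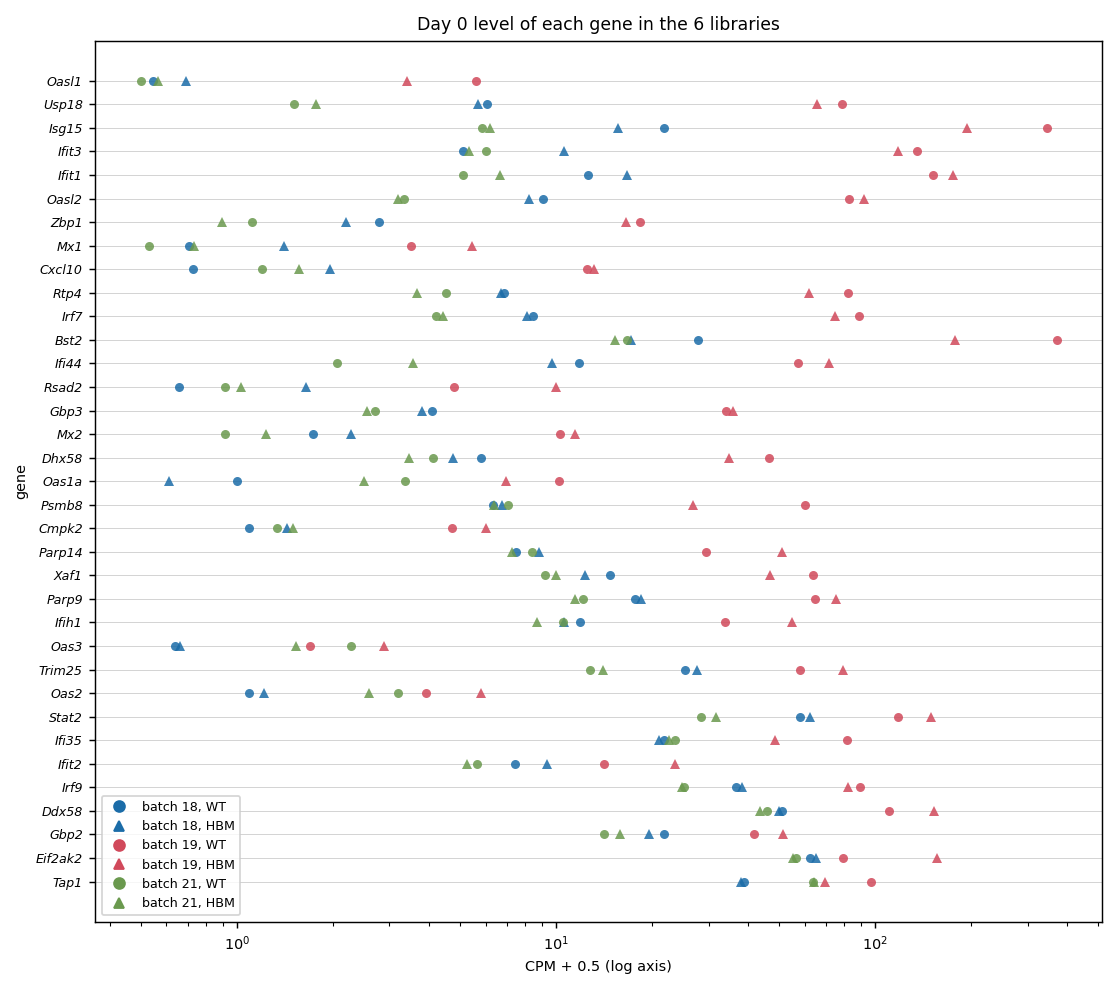
Day 0 level (CPM + 0.5, log axis) of each of the 35 genes in the 6 libraries, coloured by batch, with circles for WT and triangles for HBM. The batch 19 points lie to the right of all others except for Oas3, and batch 21 is the lowest batch in most rows but not, for example, for Oas1a, Oas2 and Oas3.

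Within batch 19 the genotypes differed by gene and not by a common factor. HBM was above WT in 20 of the 35 genes and below in 15. The ratio of HBM to WT was over 1.5 in 8 genes, with 2.22 for Rsad2, 2.0 for Oas3 and 1.98 for Eif2ak2. It was lowest for Psmb8, at 0.442, and for Bst2, at 0.481. These are ratios of 1 library to 1 library and carry no test.

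Genes of the pathway outside the set were read from lists, with the same contrast on day 0, in which 8.94% of all genes were higher and 6.22% lower. Of 21 genes of interferon receptors and signalling, 2 were higher and 1 lower in batch 19 at the threshold, close to the shares of all genes. Among them, Irf1 was 1.49-fold higher (adjusted p = 0.0468), and Ifnlr1, a receptor chain for type III interferon, was lower at 0.403 times (adjusted p = 0.0486). The receptor chains Ifnar1 and Ifnar2, chosen for naming after their values were seen, had log2 differences of -0.16 ± 0.14 and -0.13 ± 0.15 (adjusted p = 0.426 and 0.552). Of 23 tested nucleic acid sensing genes 10 were higher and 1 lower, among the higher Ifi204 (3.41-fold), Tmem173, which encodes STING (1.97-fold), and Unc93b1 (1.85-fold). Of 43 tested further interferon-induced genes 30 were higher and 0 lower, with the smallest p for Phf11d (18.1-fold), Ifit3b (17.4-fold) and Slfn9 (4.55-fold).

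Lists nearer to interferon gamma and antigen display are read against the same 8.94% of genes higher and 6.22% lower. Of 17 tested interferon gamma GTPases and CIITA targets, 11 were higher and 0 lower, with the smallest p for the GTPase genes Igtp (8.16-fold), Iigp1 (19.8-fold) and Irgm2 (5.18-fold). Of 19 genes of class I presentation 13 were higher and 0 lower, with the smallest p for H2-Q4 (8.73-fold), H2-Q6 and H2-K1 (3.44-fold). H2-K1, a main class I heavy chain, was at 67.1, 301 and 63.2 CPM in the WT libraries of batches 18, 19 and 21 and at 57.9, 148 and 56.8 CPM in HBM. Of 16 tested inflammatory cytokines and chemokines 4 were higher: Ccl5 (7.55-fold), Cxcl5 (3.19-fold), the NF-kappaB inhibitor gene Nfkbia (1.49-fold) and Cxcl9. Cxcl9 stayed at or under 0.675 CPM in all 6 libraries, and H2-Q6 reached 2.61 CPM in the WT library of batch 19. These lists were written with earlier results of these data known.

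The interferon genes themselves were hardly detected. Summed over 21 ligand genes, each of the 24 libraries held 0 to 7 reads, and 16 of the 21 had no read in any library. The day 0 libraries of batch 19 held 7 (WT) and 5 (HBM) reads, and those of batches 18 and 21 held 3 to 7. Ifnb1, the interferon beta gene, had 1 read in the WT and 3 reads in the HBM library of batch 19 on day 0 and 0 reads in the other 22 libraries. At this depth no difference in ligand RNA was detectable, and a count of 0 allows up to 3 reads.

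Other cell markers were read beside the day 0 difference. Macrophage markers did not follow it: the 12 summed to 75.7, 59.2 and 1437 CPM in the WT libraries of batches 18, 19 and 21 and 45.2, 131 and 1155 CPM in HBM. All 12 had lower values in batch 19 than in the mean of the others, and 3 of them passed. The B cell markers summed to at most 0.260 CPM in any library of the series, and Cd3e, which defines T cells, had 0 reads in all 24. The 9 T and NK cell markers together summed to 0.973 to 1.95 CPM on day 0 and 4.50 to 35.9 CPM later, most of the later sum from Cd4. Siglech, which defines plasmacytoid dendritic cells, had 0 reads in the 6 day 0 libraries. The 6 markers of those cells summed to 0.114 and 0.182 CPM in batch 19 and 3.30 to 4.35 CPM in batches 18 and 21 on that day, nearly all from Cox6a2. Chondrocyte markers did move with it: the 5 summed to 1294, 16277 and 3999 CPM in WT and 839.8, 8946 and 1777 CPM in HBM, and 3 of the 5 were higher in batch 19 at the threshold, including Col2a1. Acp5, an acid phosphatase gene known from osteoclasts, was 12.8-fold higher in batch 19, and 1 of 5 tested osteoclast markers passed. The part of these cells in the result was not tested.

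By day 10 the difference of batch 19 was much smaller, and the genes that still passed had the sign of day 0. In the contrast of batch 19 with the mean of the others, 4 of 35 genes passed, against 9.03% of 15906 genes; 4 were higher, against 4.63%, and 0 lower, against 4.4%. Leaving out the WT or HBM library of batch 19 or 21 left 0 or 1 of them. The median log2 difference was 0.23. The 4 were Oasl2 (log2 0.79 ± 0.12, adjusted p = 0.026), Gbp3 (0.50 ± 0.09, 0.0322), Psmb8 (0.38 ± 0.07, 0.0322) and Ifi44 (0.96 ± 0.18, 0.0371). On day 15, 3 genes were higher in that contrast, against 12.3% of 15914 genes, and 1 was lower, against 10.3%. Oas1a, Psmb8 and Oasl1 were higher and Tap1 lower. Without either day 15 library of batch 19 the count was 0, and without either of batch 18 it was 7. The day 15 level of Oas1a in batch 19 lay between the other batches, above a low batch 18 and below batch 21. It was at 2.39, 6.89 and 9.07 CPM in the WT libraries of batches 18, 19 and 21. The HBM libraries gave 2.22, 7.73 and 9.44 CPM. Psmb8 on day 15 was at 32.0 CPM in the WT library of batch 19 and 32.4 CPM in that of batch 21. On day 21, 0 genes passed in edgeR's quasi-likelihood test, against 3.54% of 15914 genes, with 9 at an unadjusted p under 0.05 and 1 by DESeq2. Both batch 19 libraries were above all 4 others for 8, 3 and 1 of the 35 genes on days 10, 15 and 21, against 11.2%, 14.7% and 10% of all genes.

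From day 0 to day 10 the levels therefore moved in opposite directions in different cultures. In batch 19 the median log2 change of the 35 genes was -1.35 in WT and -1.37 in HBM. It was 1.64 and 1.66 in batch 21, and 0.41 and 0.03 in batch 18. Isg15 went from 346 to 25.6 CPM in the WT and from 194 to 28.9 CPM in the HBM culture of batch 19, and went from 5.34 to 31.0 CPM and from 5.71 to 30.7 CPM in batch 21. In batch 18 it was at 21.3 and 18.8 CPM in WT and 15.1 and 13.0 CPM in HBM. All 6 cultures were thus at 13.0 to 31.0 CPM on day 10, after a day 0 range of 5.34 to 346 CPM.

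**Figure D3:**
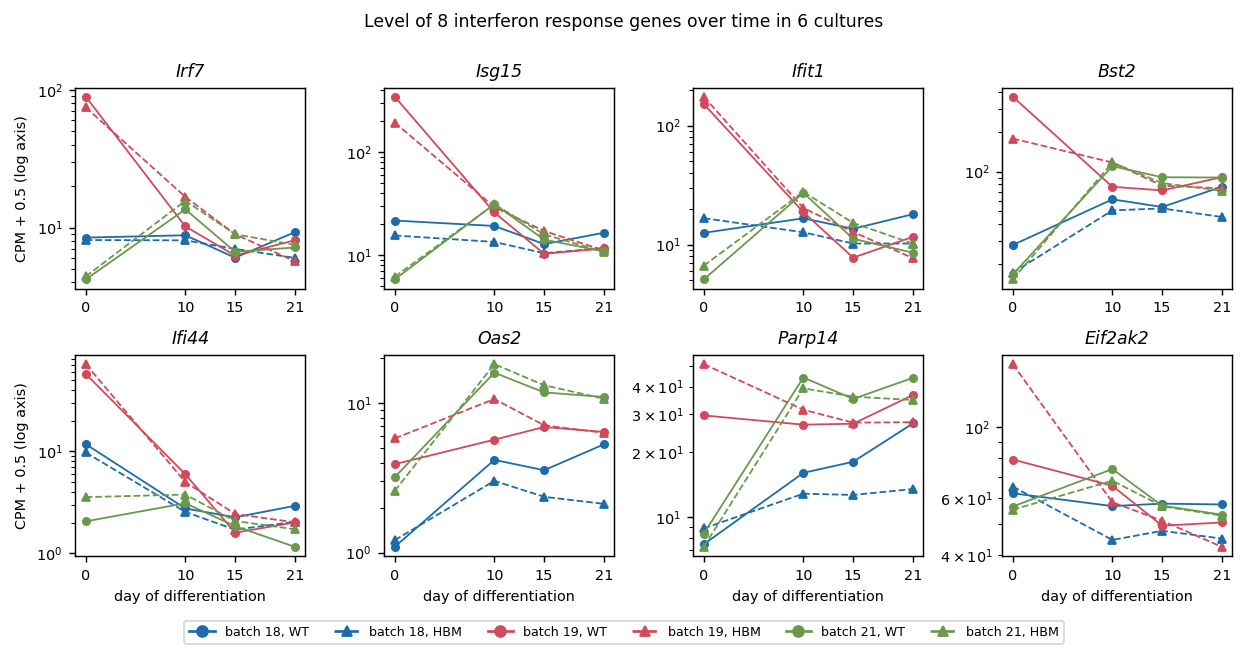
Level (CPM + 0.5, log axis with its own range in each panel) of 8 genes on days 0, 10, 15 and 21 in the 6 cultures, coloured by batch, with solid lines and circles for WT and broken lines and triangles for HBM. Irf7, Isg15, Ifit1, Bst2 and Ifi44 start highest in both batch 19 cultures and come close to the others by day 10, whereas Oas2 and Parp14 stay ordered by batch later on.

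A test of whether the change from day 0 to day 10 differed between batches, added after the data had been seen, called all 35 genes, against 14.9% of 15911 genes. It compared changes within cultures, 12 libraries in all, with 2 residual degrees of freedom. Its smallest p belonged to Ifit1, Usp18 and Oasl2 (adjusted p = 0.000625 each) and its largest to Tap1 (0.0448). In 13 of the 35 genes the level was lower at day 10 in both batch 19 cultures and higher in all 4 others, which was so for 406 of 16592 genes (2.45%). These were Ifit3, Ifih1, Dhx58, Oasl1, Oasl2, Ifi35, Bst2, Parp9, Parp14, Trim25, Cmpk2, Gbp2 and Gbp3.

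Some members broke the pattern. Oas2 was higher at day 10 than at day 0 in all 6 cultures, with log2 changes of 0.55 and 0.88 in batch 19 and 1.32 to 2.82 elsewhere. Tap1 was lower at day 10 in batches 19 and 21 and slightly higher in batch 18. Ifi44 was lower at day 10 in batches 18 and 19, with log2 changes of -2.09 and -3.27 in WT and -1.93 and -3.84 in HBM, and a little higher in batch 21.

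**Figure D4:**
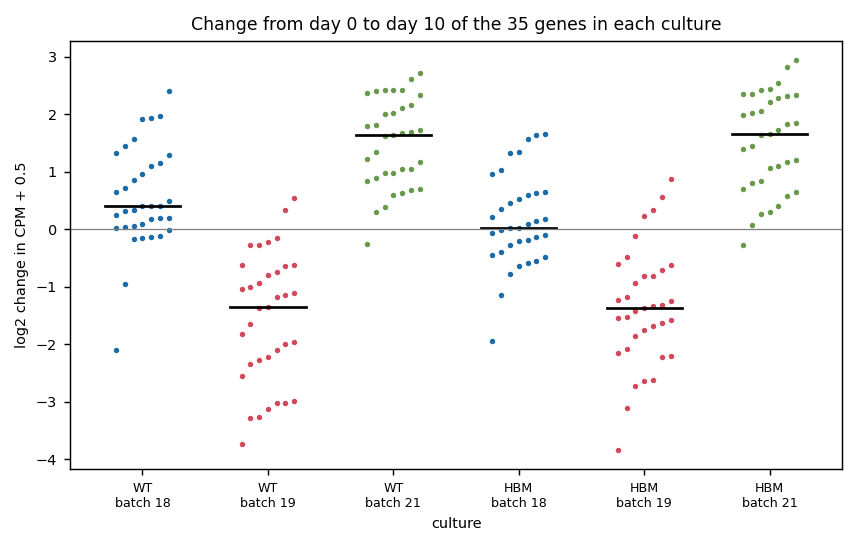
Log2 change in CPM + 0.5 from day 0 to day 10 of the 35 genes (points) in each of the 6 cultures, with the median as a bar. The batch 19 medians lie at -1.35 and -1.37 and the batch 21 medians at 1.64 and 1.66.

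Averaged over the 3 batches, hardly any gene passed in the same step. In WT, 1 of 35 genes passed from day 0 to day 10, against 26.2% of 16592 genes, and in HBM 1 of 35, against 26.5%. The gene was Ifi44 in both, a fall, against 14.1% and 12.4% of genes. Without any 1 of the day 10 libraries of its genotype no gene passed. In WT it was at 11.2, 56.8 and 1.56 CPM on day 0 and 2.25, 5.45 and 2.59 CPM on day 10 in batches 18, 19 and 21, a log2 change of -2.75 ± 0.99 (adjusted p = 0.048). In HBM it was at 9.23, 70.9 and 3.05 CPM and then 2.05, 4.50 and 3.27 CPM (-3.09 ± 1.0, adjusted p = 0.0306). The groups overlapped, since the levels of batch 21 were low on both days. The median log2 change of the 35 was -0.39 in WT and -0.53 in HBM.

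Of the genes named throughout, none passed in this step. In WT the log2 changes were -1.69 for Irf7 (adjusted p = 0.182), -2.30 for Isg15 (0.13) and -2.05 for Cxcl10 (0.168). Next after Ifi44 by p came Ifit2 in WT (0.91, adjusted p = 0.0871) and Eif2ak2 in HBM (-0.70, adjusted p = 0.0622). Without the 2 day 0 libraries of batch 19, an alternative chosen after seeing the data, the picture turned: 15 of 35 genes rose in WT and 15 in HBM, where 2069 and 2315 of 16808 genes rose, with median log2 changes of 1.18 and 1.10, and 0 fell. Ifi44 was then not called in either genotype. Among those that rose in both were Ifit3 (log2 2.56 and 1.80), Bst2 (1.92 and 2.59), Gbp3 (2.10 and 1.95) and Psmb8 (2.29 and 2.19). Irf7 rose in HBM in that fit, by a log2 change of 1.17 (adjusted p = 0.0239), against -1.14 with all libraries. With each culture as a block, 38.5% of all genes passed in WT and 38.2% in HBM. Of the 35, 2 rose in WT, Ifit2 (log2 0.98, adjusted p = 0.0466) and Oas2 (1.82, 0.00373), and Ifi44 was lost (0.0661). In HBM the block gave 2 higher, Oas1a (1.69, adjusted p = 0.0467) and Oas2 (1.80, 0.00402), and Ifi44 lower (-2.48, 0.0403).

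Other genes of the pathway were read in the same step, in which 12.2% of all genes rose and 14.1% fell in WT and 14.1% rose and 12.4% fell in HBM. Of 21 tested interferon gamma GTPases and CIITA targets 6 rose in WT and 3 in HBM, among them the class II gene H2-Aa (log2 5.62 and 5.11) and, in WT, its regulator Ciita (3.53). Of 19 class I genes 3 rose and 1 fell in WT, and 6 rose and 1 fell in HBM, with H2-D1 up by 1.51 and 2.07 and H2-T23 by 1.44 and 1.82 on the log2 scale. The gene that fell in both was Canx, a chaperone of class I assembly (-0.68 and -0.76). Of 44 further interferon-induced genes 3 rose and 1 fell in WT and 5 rose and 3 fell in HBM, with Slfn5 and Ifi203 up and Ifitm3 down in both. These shares of risers in the last list lay below those of all genes, and no list was tested against the rest. Macrophage markers rose beside them, 3 of 12 in WT and 4 of 12 in HBM, from a summed 45.2 to 1437 CPM on day 0 to 1636 to 12260 CPM on day 10. Their part in these changes was not tested. The change from day 0 to day 10 was not found to differ between HBM and WT: 0 of 35 genes and 0 of 16592 passed (0% of genes), with 0 and 537 at an unadjusted p under 0.05, and 0 genes by DESeq2.

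The test of any batch difference called 22 of 35 genes on day 10, against 27.2% of genes, 13 on day 15, against 37.4%, and 4 on day 21, against 10.6%. On days 15 and 21 the shares of the set were thus close to those of all genes. The 4 on day 21 were Oas3, Tap1, Gbp3 and Parp14. On days 10 and 21 these counts rest on single libraries: without the HBM library of batch 21 they were 0 and 0, without its WT library 1 and 0, and without the HBM library of batch 19 13 and 0. Day 10 fell to 14 without the HBM library of batch 18, and day 21 went to 8 and 2 without the WT libraries of batches 18 and 19. On day 15 the smallest p belonged to Oas1a, Oas3, Oas2, Parp14, Bst2 and Rsad2. Over the 3 later days Oas2 was at 1.62 to 4.82 CPM in the 6 libraries of batch 18, at 5.21 to 10.2 CPM in batch 19 and at 10.3 to 17.8 CPM in batch 21. These 3 ranges did not overlap. Oas1a was at 1.40 to 4.76, 5.25 to 9.76 and 7.40 to 12.9 CPM. These were the 2 genes of the 35 with all 6 later libraries of batch 18 below all 12 of the others, which was so for 1.64% of 13250 genes with a mean over 1 CPM. Parp14 was at 12.1 to 26.6 CPM in batch 18 and at 26.2 to 36.1 and 34.2 to 43.6 CPM in batches 19 and 21. Oas3 was at 0.167 to 0.871, 0.814 to 2.91 and 2.20 to 4.66 CPM. Both overlapped slightly.

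Macrophage markers had the same order of batches on each of these days. Their sum was 1636 to 5713 CPM in batch 18, 3396 to 7241 CPM in batch 19 and 8829 to 12260 CPM in batch 21. All 12 markers passed the batch test on days 10 and 15, and 2 did on day 21. The part of macrophages in the order of the OAS genes was not tested. On day 0 the 2 readouts differed in batch 19: macrophage markers were highest in batch 21, and Oas1a and Oas2 in batch 19. Between batches 18 and 21 the macrophage sum, Oas1a and Oas2 were all higher in batch 21 on that day, in either genotype. Summed over the 4 days of each culture, 33 of 35 genes differed between batches, against 32% of 18941 genes, and with the sums limited to days 10, 15 and 21, chosen after seeing the data, 18 did, against 35% of genes.

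From day 10 to day 21 most values were lower, and no gene passed. In HBM all 35 genes had lower values at day 21, with a median log2 change of -0.58 against 0.00 over all genes, and in WT 27 did, with a median of -0.24. The count called was 0 of 35 and 0% of genes in both by edgeR, with 0 genes of the set at an unadjusted p under 0.05 in either, and 707 and 535 genes of all in WT and HBM. That fit shares 1 spread per gene over all 8 groups, day 0 included. With only the 2 groups compared in the fit, 4 genes of the set in WT and 11 in HBM were under 0.05. Of all genes 1281 of 15493 and 965 of 15449 were, and 0 were called. DESeq2 called 18 and 3 genes of all and 0 of the set. Cxcl10 went from 0.381, 1.62 and 2.04 CPM in the HBM libraries of batches 18, 19 and 21 to 0.330, 0.628 and 0.475 CPM. Irf7 went from 7.57, 16.2 and 15.1 CPM to 5.52, 5.19 and 6.97 CPM in the same cultures, so every culture was lower. In the WT culture of batch 18 the median was 0.17, above 0, while it was -0.30 and -0.36 in batches 19 and 21.

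Per kilobase of exon, Isg15 ranked first and Bst2 second in the day 0 means of both genotypes, and Bst2 ranked first in all 6 later groups. The day 0 means rest on batch 19: in WT they were 164 ± 254 for Isg15 and 152 ± 222 CPM per kb for Bst2 (SD, n = 3). In HBM they were 94.6 ± 140 and 77.2 ± 104. In batch 21 on day 0 Isg15 was below Bst2, at 5.34 (WT) and 5.71 CPM (HBM) against 16.2 and 14.8 CPM. On day 10 in WT, Bst2 was the most abundant at 91.3 ± 27.4 CPM per kb (SD, n = 3), then Isg15 at 33.2 ± 8.09, Ifit3 at 17.1 ± 1.62, Ifi35 at 15.1 ± 1.27 and Eif2ak2 at 12.7 ± 1.68. The ranges of mean ± SD of Ifit3 and Ifi35 overlapped, although Ifit3 was the higher per kb in every WT library of that day. On day 21 in HBM, Bst2 was at 70.2 ± 17.9 and Isg15 at 14.2 ± 0.660 CPM per kb. Mx1 was the lowest in both groups, at 0.263 ± 0.0818 and 0.138 ± 0.0475 CPM per kb.

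The comparison the study was built for is HBM with WT, and here the set showed no called difference in the fits without a batch term. On days 0, 10, 15 and 21, and on counts summed over days, 0 of 35 genes and 0% of genes passed in edgeR's quasi-likelihood test. At an unadjusted p under 0.05 there were 0 genes of the set in all 5 tests and 701, 476, 347, 356 and 555 genes of all. The 4 daily tests share 1 spread per gene over all 8 groups, the day 0 libraries of batch 19 included. With only the 2 groups compared in the fit, 0, 0, 1 and 6 genes of the set were under 0.05 on the 4 days. Of all genes 27, 882, 565 and 642 were, and 0 were called. The median log2 difference of the set was 0.16, -0.05, 0.00 and -0.43 on the 4 days and 0.00 on the sums. The day 0 median rests on batch 19: it was 1.63 without the WT and -1.43 without the HBM library of that batch. Those fits keep batch 19 in 1 genotype only, so their medians also carry the batch difference. Without both libraries, an alternative chosen after seeing the data, the median was -0.02. In each of these fits 0 genes were called. DESeq2 called 0, 2, 0 and 1 genes of all on the 4 days, 25 on the sums and 0 of the set. With a batch term for each day as the replicate block, 8, 4, 3 and 16 genes of the set had an unadjusted p under 0.05. Of all 16592 genes 2668, 2511, 2082 and 2293 did. That block called 0, 0, 0 and 1 genes of the set and 21, 217, 55 and 40 of all. With a batch term on the sums, 6 genes of the set and 2895 of 18387 were under 0.05, and 0 were called.

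The smallest p of the set belonged to Eif2ak2 on day 0 (log2 0.49 ± 0.27, adjusted p = 0.901) and on day 10 (-0.20 ± 0.27, adjusted p = 1). On days 15 and 21 it belonged to Gbp2 (-0.32 ± 0.37 and -0.34 ± 0.37, adjusted p = 1 for both). On day 10 Stat2 was at 52.9, 51.8 and 50.4 CPM in WT and 39.8, 51.7 and 49.3 CPM in HBM. Ifit1 was at 16.1, 18.2 and 26.7 CPM in WT and 12.2, 19.8 and 27.2 CPM in HBM on the same day. Irf9 was at 36.9, 39.9 and 48.9 CPM and 26.9, 35.8 and 43.9 CPM. The genotypes overlapped in all 3 genes. On the sums Isg15 had a log2 difference of -0.38 ± 0.91 and Rsad2 of 0.54 ± 0.60.

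On day 21 the HBM values were on the low side. Of the 35 genes, 34 were lower in HBM, with Tap1 as the exception, and the median over all genes was -0.01. In batch 18 all 35 were lower, with a median of -0.62, in batch 19 33 were, with -0.31, and in batch 21 24 were, with -0.10. Rtp4 was at 9.25, 10.1 and 11.1 CPM in the WT libraries of batches 18, 19 and 21 and at 4.28, 6.08 and 7.24 CPM in HBM, which did not overlap (log2 -0.79 ± 0.96, adjusted p = 1). Gbp2 was at 29.2, 19.3 and 24 CPM in WT and 18.8, 16.8 and 21.6 CPM in HBM. Irf7 was at 8.76, 7.59 and 6.67 CPM and 5.52, 5.19 and 6.97 CPM, and Isg15 at 16.1, 11.2 and 10.4 CPM and 11.3, 10.7 and 10.3 CPM, and both overlapped. With a batch term for each day as the replicate block, 1 of 35 genes was lower at the threshold, against 14 of 16592 genes. Counting both directions, 0.241% of all genes passed. It was Gbp3 (log2 -0.52, adjusted p = 0.0334), at 12.9, 8.52 and 7.59 CPM in WT and 8.92, 5.65 and 5.59 CPM in HBM. It was lower in HBM within every batch, although the groups overlapped. In that fit 16 of the 35 had an unadjusted p under 0.05, against 2293 of 16592 genes.

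**Figure D5:**
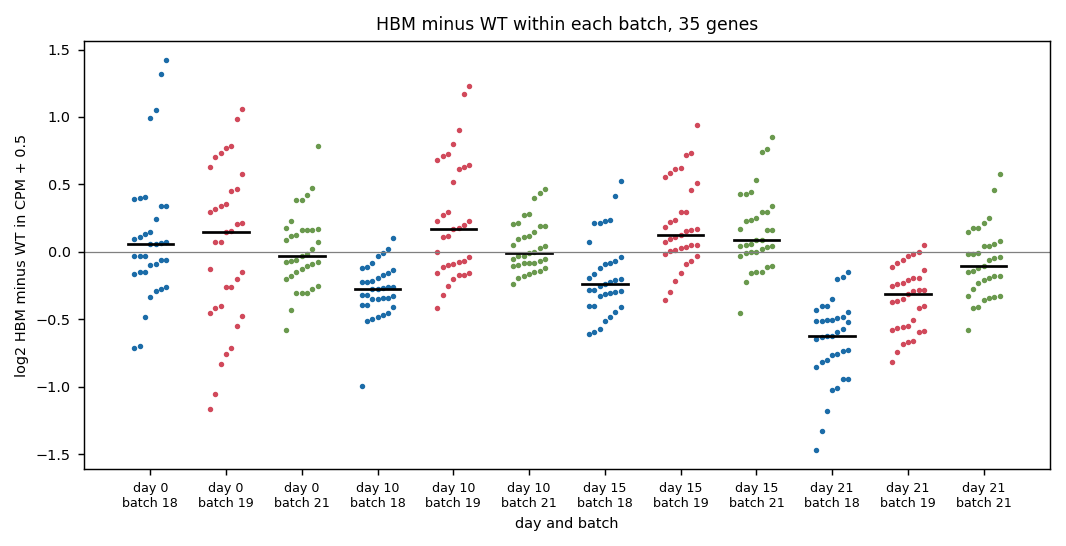
Log2 difference HBM minus WT in CPM + 0.5 of the 35 genes (points) within each batch on each day, with the median as a bar. On day 21 the medians are -0.62, -0.31 and -0.10 in batches 18, 19 and 21, and on the other days they lie between -0.28 and 0.17.

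The macrophage markers were also lower in HBM in every batch on day 21. Their sum was 5713, 7241 and 9889 CPM in the WT libraries of batches 18, 19 and 21 and 2012, 5987 and 8829 CPM in HBM. The largest gap was in batch 18, as it was for the 35 genes. Adipocyte markers summed to 628, 612 and 772 CPM in WT and 385, 549.9 and 402 CPM in HBM, also lower in every batch. Osteoblast markers were higher in HBM in every batch, at 55418, 60709 and 29894 CPM in WT and 107250, 85000 and 58960 CPM in HBM. The part of these cells in the lower values was not tested. On day 15 the macrophage sum was also lower in HBM in all 3 batches, whereas the medians of the 35 genes were -0.24, 0.12 and 0.09 in batches 18, 19 and 21.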

How the data were processed

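The deposited table holds whole-number read counts per gene for 24 libraries, 28039095 to 46987734 counts each, made by the authors with cutadapt 3.4, STAR 2.7.8a and featureCounts of Subread 2.0.1 on mm10, per the submitters' processing notes. No source used here gives the strand setting or the annotation used for counting, so a gene and its antisense partner, or near-identical copies, may share counts. Rows were matched by Ensembl ID to GENCODE M21 for names and coordinates (54164 of 54232, with at most 0.00337% of the counts unmatched), and 0 columns were left unused.

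Counts were tested with edgeR 4.0.16 (R 4.3.3): TMM scaling (factors 0.866 to 1.11), the filterByExpr filter on low counts (16592 genes in the fit of all 8 groups), the quasi-likelihood test and Benjamini-Hochberg adjustment over every tested gene (threshold 0.05). SE is the log2 change divided by the square root of F. Levels are CPM on the scaled library size, and changes within a culture or batch use log2(CPM + 0.5). Batch tests of single days used the 6 libraries of that day with genotype and batch terms. They, the test of the change by batch and the fits without the day 0 libraries of batch 19 or on later days alone were added after seeing the data. The members, lists and markers were chosen with earlier results of these data known. Named in every comparison were Stat2, Irf7, Irf9, Isg15, Ifit1, Rsad2 and Cxcl10 and the members past the threshold (the 12 with the smallest p where more passed, up to 6 where fewer did), and from other lists the 3 with the smallest p; others named are members given by role. Some genes of these lists are not reported here by name.

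The labels give batch numbers but state no pairing, which was read from the data. After removing group means, WT and HBM libraries of 1 day and batch correlated at 0.606 to 0.853 in all 12 pairs. Those of different batches correlated at -0.728 to 0.162. The labels speak of independent pooled cultures, and do not say whether the genotypes of a batch were handled apart, so p-values of batch tests measure the spread between the genotypes. The tests were tested on simulated data. Alternatives were DESeq2 1.42.0, its size factors, no filter, batch or culture blocks, fewer groups or batches, and leaving out each library.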

Additional observations from a re-analysis of the deposited data

Results flagged for a closer look

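The change from day 0 to day 10 differed between the 3 batches for 35 of the 35 genes by edgeR's quasi-likelihood test of the batch term in that change, against 14.9% of all genes. The median log2 change of the 35 genes was -1.35 (WT) and -1.37 (HBM) in batch 19 and 1.64 and 1.66 in batch 21. The test was added after the difference had been seen.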

How the results depend on the processing

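For HBM against WT, a batch term for each day as the replicate block called 21, 217, 55 and 40 genes of all on days 0, 10, 15 and 21 and 1 of the 35 on day 21, and DESeq2 called 2 genes on day 10, 1 on day 21 and 25 on the sums. From day 0 to day 10 in WT, 0 of the 35 passed without the filter, 3 (6698 of all genes) with 1 batch term, 2 with a culture block, 0 (472) with only both groups in the fit and 15 without the day 0 libraries of batch 19. In HBM these were 2 with DESeq2, 3 with either block, 0 (2087) with only both groups, 3 without batch 21 and 15 without the day 0 libraries of batch 19, where Irf7 turned from -1.14 to 1.17. From day 10 to day 21, DESeq2 and the batch and culture blocks called 18, 89 and 92 genes in WT and 3, 14 and 16 in HBM. The difference between genotypes in the first step gave 3 genes with the daily block. The batch test on sums gave 3757 genes without the genotype term and 18 of the 35 on sums of days 10 to 21. The daily batch test gave 21 of the 35 on day 15 without the filter, and on day 21 9 (3137 genes) without it and 8 (2539) by DESeq2. Batch 19 against the others gave 9 without the filter and 2 by DESeq2 on day 15, and 1 (1217) and 1 (1023) on day 21.

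Leaving out each library in turn gave 0 to 6 of the 35 (2866 to 5484 genes) from day 0 to day 10 in WT and 0 to 3 (2809 to 4415) in HBM. Without the day 0 library of batch 18, 19 or 21 the counts were 2, 6 and 4 in WT and 2, 3 and 3 in HBM, all higher at day 10 without batch 19 (median log2 1.18 and 1.10) and all lower without batch 18 or 21 (-0.61 and -0.68 in WT, -0.87 and -0.92 in HBM). The batch test gave 26 to 34 (3407 to 6564 genes) on sums, 33 to 35 (2364 to 11126) on day 0, 0 to 25 (202 to 3821) on day 10, 10 to 19 (3565 to 5637) on day 15 and 0 to 8 (4 to 2445) on day 21. Batch 19 against the others gave 33 to 35 (1627 to 9032), 0 to 6 (27 to 1844), 0 to 7 (1001 to 3757) and 0 to 2 (2 to 1117) on the 4 days, and the test of the change by batch 34 to 35 (2291 to 8740). HBM against WT, day 21 against day 10 and the difference between genotypes gave 0 each time. In daily fits this leaves 1 residual degree of freedom, and the lone library is assumed to vary like the others. Of 2081 values of named members under the alternatives, 127 changed sign, 1 of them called. The cause of these moves was not tested. Genes with few reads, such as Oasl1 and Mx1 on day 0, are limited by depth.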
